A study of Homo sapiens with 12 samples.

Results

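The genes described here are 7 components of the machinery that senses DNA in the cytosol and signals through STING. They are the DNA sensors CGAS, AIM2 and IFI16, the exonuclease TREX1, the adaptor STING1, the kinase TBK1 and the transcription factor IRF3. They were found by name among 60669 gene identifiers, all 7 matched, and 6 of them passed a filter on low counts that left 16393 genes for testing. CGAS did not pass and was handled apart. The 12 libraries were made from polyadenylated RNA of HT1080, an established human fibrosarcoma line. All cells stably carried dCas9 (a Cas9 that binds DNA without cutting it, used for CRISPR interference) together with a guide RNA, and were grown under blasticidin and puromycin selection. The guide of the LTR8B cells is directed at an LTR8B element, a retroviral long terminal repeat inside the first intron of SP140, and that of the GFP cells at GFP, as control. There were 4 LTR8B libraries treated with IFNB, 4 LTR8B untreated libraries, 2 GFP libraries treated with IFNB and 2 GFP untreated libraries. IFNB (interferon beta) was given at 10 U/mL for 4 h. The labels do not say whether the lines were clonal or whether replicates were separate cultures, so p-values measure the spread between these libraries, which may be technical.

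When DNA appears in the cytosol, cGAS binds it and makes the cyclic dinucleotide cGAMP, which binds STING on the endoplasmic reticulum. STING then moves to the Golgi and recruits TBK1, which phosphorylates IRF3, and IRF3 enters the nucleus and drives transcription of type I interferon genes. TREX1 degrades cytosolic DNA and so limits this route. AIM2 and IFI16 belong to the PYHIN family. AIM2 binds DNA and assembles an inflammasome with the adaptor ASC (gene PYCARD) and caspase-1, and IFI16 binds DNA in the nucleus and cytosol. Several of these genes are themselves known as interferon-stimulated genes, whose promoters can carry an interferon-stimulated response element (ISRE), bound by the STAT and IRF proteins that act after the interferon receptor.

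Total counts ran from 12404270 to 28801579 per library. SP140 was at 1.23 ± 0.288 CPM in LTR8B cells with IFNB (SD, n = 4) and 30.9 ± 1.56 CPM in GFP cells with IFNB (SD, n = 2), and at 1.25 ± 0.570 CPM in untreated LTR8B cells (SD, n = 4) and 30.3 ± 0.728 CPM in untreated GFP cells (SD, n = 2). CPM here is counts per 1000000 counts after TMM scaling. The interferon-stimulated gene ISG15 was higher with IFNB by 5.10 (log2) in LTR8B cells and 5.07 in GFP cells, and IFIT1 by 8.13 and 8.36. Mesenchymal markers summed to 3878 to 4576 CPM per library, whereas epithelial markers summed to at most 1.39 CPM and KRT5 had no count. Most of the mesenchymal sum was VIM, at 3264 to 3552 CPM on average per group. COL1A2 was at 0.358 to 0.807 CPM on average per group, and THY1 had 33 counts in all libraries together. Haematopoietic markers summed to 120.8 to 141.9 CPM in LTR8B cells with IFNB and 98.16 to 116 CPM in LTR8B untreated cells, and to 126.4 to 133.1 CPM in GFP cells with IFNB and 105.7 to 115.1 CPM in GFP untreated cells. Nearly all of that sum was CD68, a lysosomal protein, and CD68 was higher with IFNB in LTR8B cells by 0.30 (edgeR adjusted p = 0.0124). PTPRC, the defining leukocyte marker, had 5 counts in all libraries together, at most 0.053 CPM in a library.

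Promoter windows of AIM2, IFI16, TREX1 and TBK1 were matched in RefSeq (GRCh38.p14), and CGAS, STING1 and IRF3 were not. The 250 bases before each start were searched on both strands for the ISRE core (GAAA, any 2 bases, GAAA) and for the core of the gamma-activated sequence bound by STAT dimers (TTC, any 3 bases, GAA). A further pattern (GAAA, any 1 base, GAAA) was added after the sequences were seen. The 2 windows with a match are shown up to the nearest downstream exon of the gene in GENCODE release 29, whose gene models begin further upstream and so contain both windows, 5′ to 3′ on the strand of the gene, with the match in capitals. AIM2 is read on the minus strand at chr1:159076902-159077016, where the match TTTCTGTTTC is GAAACAGAAA on the opposite strand, and IFI16 on the plus strand at chr1:159009657-159009891, before the second of its 2 RefSeq starts.
AIM2: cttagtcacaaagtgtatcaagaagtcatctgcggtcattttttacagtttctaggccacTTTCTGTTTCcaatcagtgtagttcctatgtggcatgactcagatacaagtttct
IFI16: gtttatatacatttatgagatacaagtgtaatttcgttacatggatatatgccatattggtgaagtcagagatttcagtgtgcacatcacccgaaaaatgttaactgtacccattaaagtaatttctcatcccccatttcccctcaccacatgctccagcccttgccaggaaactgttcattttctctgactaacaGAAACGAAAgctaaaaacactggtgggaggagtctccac

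The AIM2 match to the ISRE core begins 190 bases before the RefSeq start and 55 bases before the nearest AIM2 exon of release 29. Of 35116 promoter windows of the same length, 3.02% hold that core. The IFI16 match is to the added pattern, which 2.69% of windows hold, and begins 54 bases before the second RefSeq start and 39 bases before the nearest exon of release 29. The windows of TREX1, of TBK1 and of the first IFI16 start held none of the 3 patterns, and the gamma-activated core, present in 6.57% of all windows, was in none of these windows. Only 10 bases of the TBK1 window lie before the start of its release 29 gene model, so sequence further upstream of that start was not searched.

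Exposure to IFNB raised 4 of the 6 tested genes in LTR8B cells, the sensors AIM2 and IFI16, the exonuclease TREX1 and the adaptor STING1, where 4.01% of all tested genes were called higher. In GFP cells it raised 3 of the 6, AIM2, IFI16 and TREX1, where 3.06% of all tested genes were called higher. The kinase TBK1 and the factor IRF3 did not pass the test in either line. In RNA of whole cultures, more cells with a transcript and more of it per cell cannot be told apart. The median log2 fold change of the 6 was 0.95 in LTR8B cells and 0.87 in GFP cells, beside -0.01 over all tested genes in both lines. The calls are from edgeR's quasi-likelihood test with Benjamini-Hochberg adjustment over 16393 genes at 0.05, which is meant by adjusted p below. Counts at an unadjusted p under 0.05 are given below without the share of all tested genes at that threshold.

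**Figure D1:**
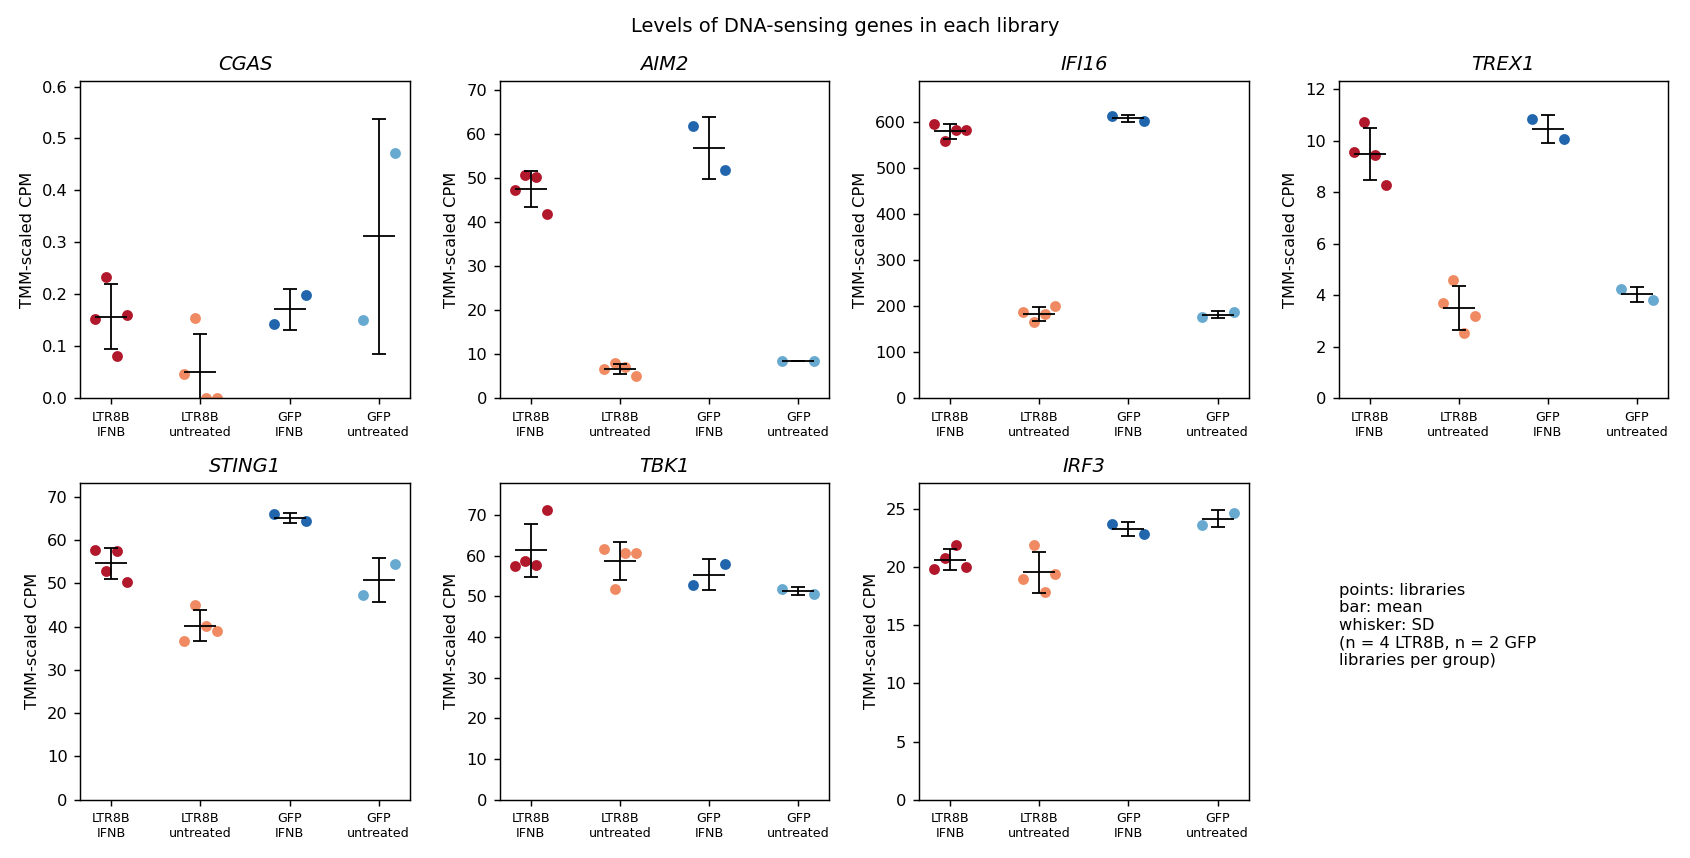
Level of each gene in every library as TMM-scaled CPM (vertical axes, each from 0), with points for libraries, bars for means and whiskers for SD (n = 4 LTR8B and n = 2 GFP libraries per group; the lower CGAS whisker is clipped at 0). AIM2, IFI16, TREX1 and STING1 libraries with IFNB all lie above the untreated libraries of the same line, whereas IRF3 libraries overlap.

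AIM2 (ENSG00000163568.15, chromosome 1, 159062484 to 159147096 on hg38, minus strand), the inflammasome sensor, was the member with the largest relative difference. It was at 47.4, 50.8, 50.2 and 41.9 CPM in LTR8B cells with IFNB, against 6.64, 7.88, 7.07 and 5.09 CPM in LTR8B untreated cells. In GFP cells it was at 61.7 and 51.8 CPM with IFNB, against 8.43 and 8.34 CPM untreated. Every treated library lay above every untreated one, with no overlap in either line. The fold change was 7.10 in LTR8B cells (95% interval 6.05 to 8.33, log2 2.83, SE 0.11, adjusted p = 1.58e-12) and 6.77 in GFP cells (5.45 to 8.41, log2 2.76, SE 0.15, adjusted p = 3.28e-10). By size this was position 93 from the top among 16393 genes in LTR8B cells and 113 in GFP cells.

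IFI16 (ENSG00000163565.18, chromosome 1, 158999968 to 159055155, plus strand), the second PYHIN sensor, is the neighbour of AIM2, with 7328 bases between the 2 genes. Its level was 595.6, 558.3, 583.7 and 582.2 CPM in LTR8B cells with IFNB, against 186.4, 164.3, 183 and 201 CPM in LTR8B untreated cells. GFP cells had 613.7 and 603.5 CPM with IFNB, against 175.5 and 187.5 CPM untreated. Here too the groups did not overlap in either line. The fold change was 3.16 in LTR8B cells (log2 1.66, SE 0.06, adjusted p = 5.49e-13) and 3.35 in GFP cells (log2 1.75, SE 0.08, adjusted p = 7.00e-11). In absolute terms IFI16 gained 396.3 CPM in LTR8B cells and AIM2 gained 40.9 CPM.

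TREX1 (ENSG00000213689.14, chromosome 3, 48465811 to 48467645, plus strand), the exonuclease that removes cytosolic DNA, was among the less abundant members. LTR8B cells with IFNB had 9.54, 10.7, 9.44 and 8.27 CPM, against 3.69, 4.58, 2.55 and 3.19 CPM in LTR8B untreated cells. GFP cells with IFNB had 10.8 and 10.1 CPM, against 4.23 and 3.82 CPM in GFP untreated cells. All treated libraries were higher than all untreated libraries of their line. The fold change was 2.75 in LTR8B cells (log2 1.46, SE 0.15, adjusted p = 2.18e-06) and 2.59 in GFP cells (log2 1.37, SE 0.20, adjusted p = 2.80e-04). All 1515 exon bases of TREX1 also lie inside the gene model of ATRIP, a partner of the ATR checkpoint kinase on the same strand, so the division of reads between the 2 genes is uncertain. ATRIP itself was at 25.2 ± 2.06 CPM in LTR8B cells with IFNB and 22.9 ± 1.89 CPM in LTR8B untreated cells (SD, n = 4 each), a log2 difference of 0.15 (adjusted p = 0.539), and its log2 difference in GFP cells was -0.03 (adjusted p = 0.948).

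STING1 (ENSG00000184584.13, listed as TMEM173 in GENCODE release 29, chromosome 5, 139475534 to 139482935, minus strand), the cGAMP receptor at the centre of the route, changed less than the sensors. It was at 57.7, 52.9, 57.5 and 50.4 CPM in LTR8B cells with IFNB, against 36.7, 45.1, 40.1 and 38.9 CPM in LTR8B untreated cells. GFP cells had 65.99 and 64.4 CPM with IFNB, against 47.2 and 54.4 CPM untreated. The treated and untreated libraries were apart in both lines. In LTR8B cells the fold change was 1.36 (95% interval 1.22 to 1.51, log2 0.44, SE 0.07, adjusted p = 7.50e-04). In GFP cells it was 1.28 (1.11 to 1.49, log2 0.36, SE 0.10, adjusted p = 0.0719), which did not pass. Of 11 alternatives 3 passed, DESeq2 (adjusted p = 0.0363), no low-count filter (0.0477) and only the 2 GFP groups fitted (0.0453). With limma-voom it did not pass (0.0648), and over the 11 the log2 value ran from 0.26 to 0.46.

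The 4 genes called in LTR8B cells were higher in all treated libraries of both lines, a pattern shown by 6.16% of tested genes in LTR8B cells and 22.6% in GFP cells. In LTR8B cells all 4 calls held when any 1 of the 8 libraries was left out. In GFP cells, with any 1 of the 4 libraries left out, AIM2, IFI16 and TREX1 stayed past the threshold.

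TBK1 (ENSG00000183735.10, chromosome 12, 64451880 to 64502108, plus strand), the kinase downstream of STING, was at 57.4, 58.8, 57.8 and 71.1 CPM in LTR8B cells with IFNB, against 61.6, 51.7, 60.7 and 60.6 CPM in LTR8B untreated cells. GFP cells had 52.7 and 58.03 CPM with IFNB, against 51.9 and 50.6 CPM untreated. The LTR8B groups overlapped, with 1 high library among the treated and 1 low library among the untreated, while the GFP groups did not overlap. The log2 difference was 0.06 in LTR8B cells (95% interval -0.10 to 0.23, adjusted p = 0.855) and 0.11 in GFP cells (-0.12 to 0.34, adjusted p = 0.742). Without LTR8B IFNB replicate 4 the LTR8B value was -0.02. Of the exon bases of TBK1, 14.7% overlap AC135279.3 on the opposite strand, which was at 0.120 to 0.242 CPM on average per group.

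IRF3 (ENSG00000126456.16, chromosome 19, 49659569 to 49665875, minus strand), the factor that TBK1 phosphorylates, was at 19.9, 20.8, 21.9 and 20.04 CPM in LTR8B cells with IFNB, against 19, 21.9, 17.9 and 19.4 CPM in LTR8B untreated cells. GFP cells had 23.7 and 22.9 CPM with IFNB, against 23.7 and 24.7 CPM untreated. These groups overlapped in both lines. The log2 difference was 0.08 in LTR8B cells (95% interval -0.08 to 0.24, adjusted p = 0.796) and -0.05 in GFP cells (-0.27 to 0.17, adjusted p = 0.875). BCL2L12 on the opposite strand covers 19.4% of the IRF3 exon bases and was at 12 to 14.3 CPM on average per group.

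**Figure D2:**
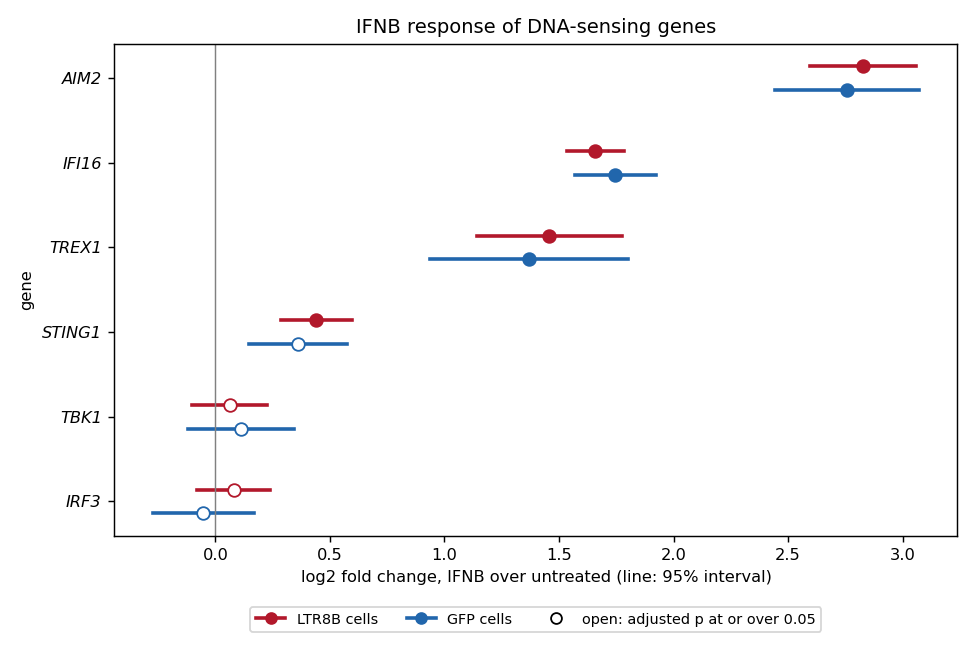
Log2 fold change of IFNB over untreated (horizontal axis, edgeR, lines 95% interval) for the 6 tested genes in LTR8B cells (n = 4 against 4) and GFP cells (n = 2 against 2), with filled points past an adjusted p of 0.05. AIM2, IFI16 and TREX1 lie above 1 in both lines, STING1 lies at 0.44 and 0.36, and the intervals of TBK1 and IRF3 include 0.

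CGAS (ENSG00000164430.16, chromosome 6, 73413515 to 73452276, minus strand), the enzyme that makes cGAMP, was close to the limit of detection. It had 3, 5, 1 and 3 counts in LTR8B cells with IFNB, against 1, 3, 0 and 0 counts in LTR8B untreated cells. GFP cells had 3 and 4 counts with IFNB, against 4 and 10 counts untreated. Treated and untreated libraries overlapped in both lines, and GFP untreated replicate 2 was the highest of all. The LTR8B IFNB total of 12 counts was 0.163 CPM on total counts (exact Poisson 95% interval 0.0843 to 0.285), against 4 counts or 0.0450 CPM (0.0123 to 0.115) in LTR8B untreated cells. The GFP IFNB total of 7 counts was 0.168 CPM (0.0676 to 0.346), against 14 counts or 0.298 CPM (0.163 to 0.500) in GFP untreated cells. These intervals cover counting error only, and the limit that a count of 0 sets, 3 counts, equals 0.104 to 0.242 CPM in these libraries.

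No CGAS difference passed an exact two-sided permutation test of mean CPM after adjustment over 6 comparisons. For IFNB the exact permutation p was 0.0857 in LTR8B cells (adjusted 0.257), with 4 libraries against 4, and 0.667 in GFP cells, where 2 against 2 libraries cannot give less than 0.333. Between the guides the exact permutation p was 0.867 with IFNB and 0.133 in untreated cells, where 0.0667 is the smallest that 4 against 2 libraries allow, and within both treatments together it was 0.0667 (adjusted 0.257). The counting intervals of LTR8B untreated and GFP untreated cells did not overlap, but they leave out the spread between libraries, which the permutation test includes. Of its exon bases 4.33% overlap DDX43 on the opposite strand, which had no count.

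Levels were compared between genes as CPM per kilobase of exon in GENCODE release 29. IFI16 was the most abundant member in all 4 groups, at 109.5 CPM per kb in LTR8B cells with IFNB and 34.7 CPM per kb in LTR8B untreated cells. In GFP cells it had 115 CPM per kb with IFNB and 34.3 CPM per kb untreated. CGAS was lowest in all 4 groups, between 0.0121 and 0.0749 CPM per kb. The order between them depended on treatment. In LTR8B cells with IFNB it was AIM2 at 23.7, STING1 at 14.2, TBK1 at 12.9, TREX1 at 6.27 and IRF3 at 5.44 CPM per kb, and the ranges of STING1 and TBK1 overlapped, as did those of TREX1 and IRF3. In LTR8B untreated cells it was TBK1 at 12.3, STING1 at 10.4, IRF3 at 5.15, AIM2 at 3.32 and TREX1 at 2.31 CPM per kb, and the ranges of TBK1 and STING1 overlapped, as did those of AIM2 and TREX1. AIM2 was therefore above STING1, TBK1 and IRF3 with IFNB and below all 3 without it.

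In GFP cells with IFNB the order was AIM2 at 28.3, STING1 at 16.9, TBK1 at 11.6, TREX1 at 6.89 and IRF3 at 6.14 CPM per kb. In GFP untreated cells it was STING1 at 13.2, TBK1 at 10.8, IRF3 at 6.37, AIM2 at 4.17 and TREX1 at 2.66 CPM per kb. With the median length of protein-coding transcripts in place of all exon bases, some neighbours changed places. AIM2 and STING1 were then close to each other with IFNB, at 31.1 and 30.8 CPM per kb in LTR8B cells and at 37.1 and 36.8 CPM per kb in GFP cells, with overlapping ranges in both lines. IRF3 lay above TREX1 with IFNB in both lines, STING1 lay above TBK1 in LTR8B untreated cells, and IRF3 lay above TBK1 in GFP untreated cells.

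**Figure D3:**
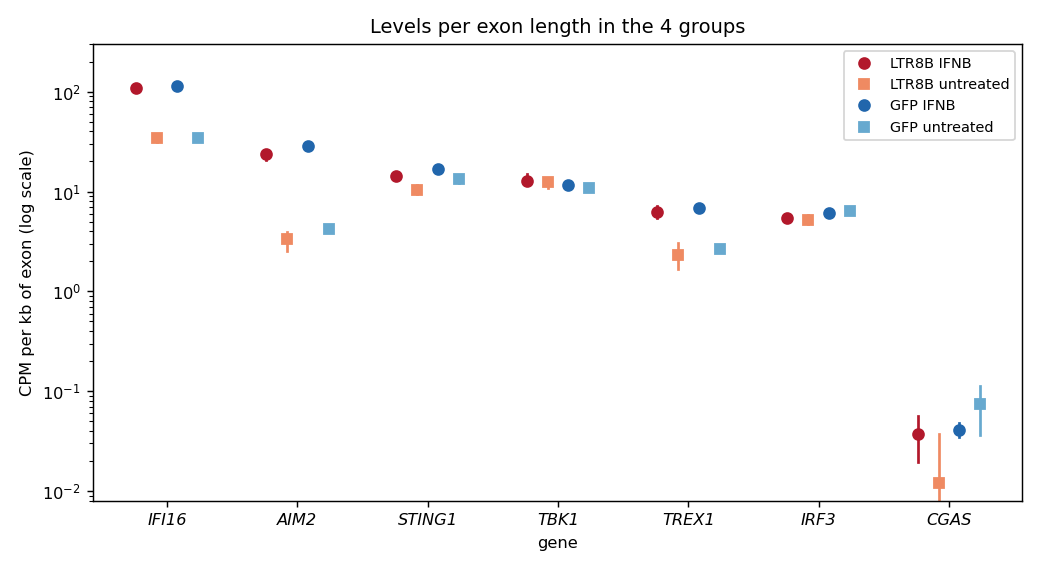
Mean level of each gene per kilobase of exon (vertical axis, CPM per kb, log scale) in the 4 groups, with lines from the lowest to the highest library (for CGAS in LTR8B untreated cells 2 libraries are at 0 and the line runs off the axis). IFI16 is highest and CGAS lowest in all 4 groups, and AIM2 and TREX1 change position with IFNB. With the median length of protein-coding transcripts in place of exon bases, TREX1 keeps its position below IRF3 in all 4 groups.

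The guide comparison asks whether these genes differ between cells with the LTR8B guide and with the GFP guide. STING1 was lower in LTR8B cells when both treatments were averaged, at 81.4% of the GFP level (log2 -0.30, SE 0.06, adjusted p = 0.0189), and it was the 1 member of 6 past the threshold, where 0.994% of all tested genes were called lower. The averaged STING1 call held under 13 of 17 alternatives, and replicate number fitted as a block was among those that ended it. The other 5 members did not pass in the average. Within a single treatment edgeR called 0 of the 6 members with IFNB (2 at an unadjusted p under 0.05) and 0 of the 6 in untreated cells (3 at an unadjusted p under 0.05). At the adjusted threshold 0.354% and 0.36% of all tested genes were called. No such share is given for the unadjusted counts. DESeq2 called 0 with IFNB and 1 untreated, STING1 (DESeq2 adjusted p = 0.0412), and limma-voom 0 in both. STING1 was also past the threshold in untreated cells without the low-count filter (adjusted p = 0.0208) and without LTR8B untreated replicate 2 (0.0421). With DESeq2 these are the 3 of 12 alternatives that passed in untreated cells, and over the 12 the log2 value ran from -0.44 to -0.24.

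With IFNB, STING1 averaged 54.6 ± 3.57 CPM in LTR8B cells (SD, n = 4) and 65.2 ± 1.16 CPM in GFP cells (SD, n = 2), a log2 difference of -0.26 (adjusted p = 0.356). Untreated, it averaged 40.2 ± 3.54 CPM in LTR8B cells (SD, n = 4) and 50.8 ± 5.03 CPM in GFP cells (SD, n = 2), a log2 difference of -0.34 (adjusted p = 0.146). In both treatments all 4 LTR8B libraries lay below both GFP libraries. Of 12 libraries left out in turn, 3 ended the averaged call, which was lost without GFP untreated replicate 2 (adjusted p = 0.197), without GFP IFNB replicate 1 (0.0776) and without GFP IFNB replicate 2 (0.0582), each of which leaves its group with 1 library.

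AIM2 and IRF3 likewise lay below the GFP libraries in all LTR8B libraries of both treatments, without passing the test. AIM2 averaged 47.5 ± 4.06 CPM in LTR8B cells and 56.8 ± 6.99 CPM in GFP cells with IFNB, and 6.67 ± 1.17 and 8.38 ± 0.0637 CPM untreated (SD, n = 4 LTR8B and n = 2 GFP), with an averaged log2 difference of -0.29 (adjusted p = 0.117). IRF3 averaged 20.6 ± 0.921 CPM in LTR8B cells and 23.3 ± 0.581 CPM in GFP cells with IFNB, and 19.5 ± 1.73 and 24.2 ± 0.725 CPM untreated, with an averaged log2 difference of -0.24 (adjusted p = 0.0619). The averaged IRF3 difference passed under 2 of 17 alternatives, DESeq2 (adjusted p = 0.0327) and without LTR8B untreated replicate 2 (0.0207). That of AIM2 passed under 1 of 17, without the low-count filter (0.0162). Together with STING1, 3 of 6 members were lower without overlap in both treatments, where 2.53% of all tested genes were. With IFNB alone 4 members lay lower without overlap (IFI16 in addition) and untreated alone 3, where 9.43% and 9.44% of all tested genes did.

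The remaining 3 members did not pass either. TBK1 was at 61.3 ± 6.59 CPM in LTR8B cells and 55.4 ± 3.75 CPM in GFP cells with IFNB, and at 58.7 ± 4.65 and 51.2 ± 0.978 CPM untreated, an averaged log2 difference of 0.17 (95% interval 0.03 to 0.31, adjusted p = 0.219). TREX1 had an averaged log2 difference of -0.18 (-0.45 to 0.09, adjusted p = 0.531) and IFI16 one of -0.03 (-0.13 to 0.08, adjusted p = 0.855). IFI16 untreated was at 183.7 ± 15.1 CPM in LTR8B cells and 181.5 ± 8.50 CPM in GFP cells. The median over the 6 members was -0.21 in the average, beside 0.00117 over all tested genes.

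**Figure D4:**
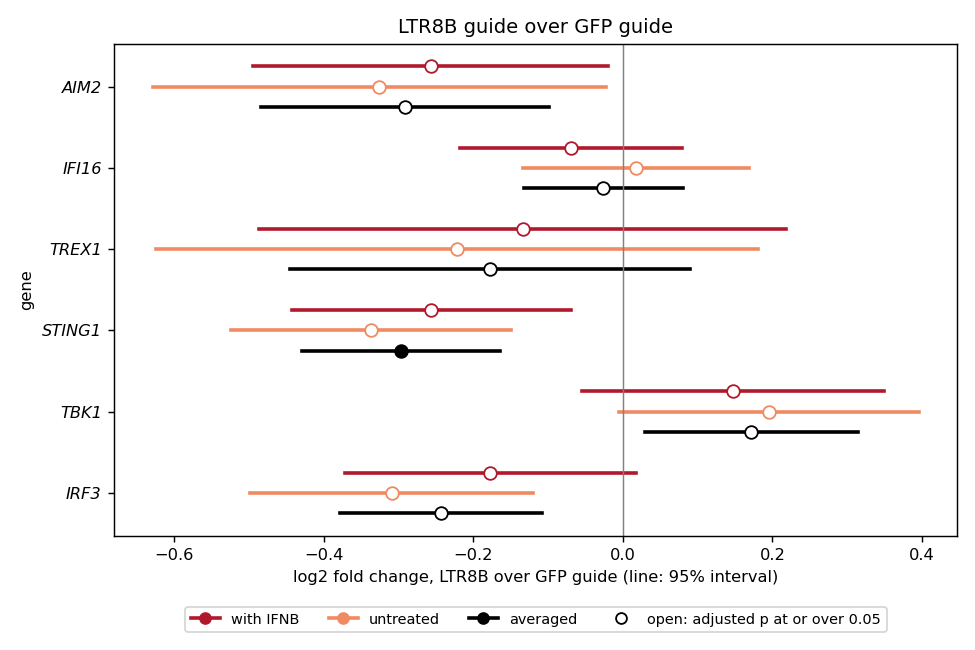
Log2 fold change of the LTR8B over the GFP guide (horizontal axis, edgeR, lines 95% interval) with IFNB, untreated and averaged over both (n = 4 LTR8B against 2 GFP libraries per treatment), with filled points past an adjusted p of 0.05. The averaged STING1 value of -0.30 is the filled point, and the AIM2, STING1 and IRF3 points lie below 0 in all 3 comparisons.

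Mesenchymal markers differed between the guides as well. Of 9 tested, 2 were lower in LTR8B cells in the average (SPARC with a log2 difference of -0.22 and COL1A1 with -0.64), where 0.994% of all tested genes were called lower. At an unadjusted p under 0.05 by edgeR 7 of the 9 were lower, and the share of all tested genes at that threshold is not given here. The median log2 difference of the 9 was -0.22. Their summed level ran from 4219 to 4435 CPM in LTR8B cells with IFNB and from 4030 to 4251 CPM in GFP cells with IFNB, and from 3878 to 4576 CPM in LTR8B untreated cells and from 4176 to 4298 CPM in GFP untreated cells. Most of these sums was VIM, which averaged 3552 CPM in LTR8B cells and 3264 CPM in GFP cells with IFNB, and 3520 and 3378 CPM untreated. Among 6 tested haematopoietic markers CSF1R was lower in LTR8B cells in the average (log2 -0.57, adjusted p = 0.00486). The part of these markers in the STING1 difference was not tested.

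The IFNB response itself was compared between the lines as the response in LTR8B cells minus that in GFP cells. By edgeR 0 of 16393 genes passed, 0.0% of those tested, and none of the 6 members had an unadjusted p under 0.05. DESeq2 and limma-voom also called 0 members. The difference was 0.08 for STING1 (95% interval -0.19 to 0.35), 0.07 for AIM2 (-0.32 to 0.45), -0.09 for IFI16 (-0.30 to 0.13) and 0.09 for TREX1 (-0.45 to 0.62), on the log2 scale. It was -0.05 for TBK1 (-0.33 to 0.24) and 0.13 for IRF3 (-0.14 to 0.41). STING1 passing the IFNB test in LTR8B cells and not in GFP cells is thus not a difference between the lines that this test detected, and intervals of this width do not show that the responses were alike.

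The other genes of the pathway were described in 8 lists with 149 genes, of which 125 were tested. In LTR8B cells 21 of the 125 were higher with IFNB and 0 lower by edgeR (25 higher and 3 lower at an unadjusted p under 0.05), and in GFP cells 14 were higher and 0 lower (21 and 6). Over all tested genes 4.01% were called higher in LTR8B cells and 3.06% in GFP cells. DESeq2 called 24 higher and 1 lower in LTR8B cells and 14 higher and 0 lower in GFP cells, and limma-voom gave 21 and 14 higher and 0 lower in both.

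Among other DNA sensors 2 of 16 were higher in both lines. ZBP1, a sensor of left-handed nucleic acid, had 218 counts in LTR8B cells with IFNB against 3 counts in LTR8B untreated cells, a ratio of 87.9 after division by total counts (exact 95% interval 29.7 to 429.6, counting error only), and 168 against 8 counts in GFP cells. NBN, of the complex that binds DNA breaks, was higher by 0.49 in LTR8B cells and 0.65 in GFP cells. Among 13 tested genes of the nuclease list SAMHD1 alone passed. It encodes a dNTP hydrolase and was higher by 3.13 in LTR8B cells and 3.25 in GFP cells, at 231.6 CPM with IFNB and 26.4 CPM untreated in LTR8B cells. TREX1, which is not on that list, was called with IFNB in both lines.

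Of 22 cGAS regulators 3 were higher in both lines. OASL, which binds cGAS and restrains it, had 3083 counts in LTR8B cells with IFNB against 12 in LTR8B untreated cells. TRIM38, a SUMO ligase for cGAS and STING, was higher by 1.96 in LTR8B cells and 1.89 in GFP cells, and TRIM14, which keeps cGAS from degradation, by 1.79 and 1.89. None of 10 tested genes of cGAMP hydrolysis and transport passed by edgeR, DESeq2 or limma-voom in either line, and none had an unadjusted p under 0.05 by edgeR. These regulators rose in cells with at most 10 CGAS counts per library.

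Of 32 genes of STING trafficking and regulation, 5 were higher in LTR8B cells and 3 in GFP cells. USP18, which recruits a deubiquitinase to STING, was higher by 6.21 in LTR8B cells and 6.23 in GFP cells, IFI35 by 2.51 and 2.57, and the ubiquitin ligase TRIM56, which acts on STING and cGAS, by 1.376 and 1.585. RHBDF2 (iRhom2), which brings STING its trafficking partner, was higher by 0.51 in LTR8B cells (adjusted p = 0.00306) and UNC93B1 by 0.46 (adjusted p = 0.0126). In GFP cells the log2 values of RHBDF2 and UNC93B1 were 0.45 and 0.43, and neither gene passed. Among 19 partners of TBK1 and IRF3, the adaptors OPTN (0.72 in LTR8B cells and 0.77 in GFP cells) and AZI2 (0.72 and 0.95) were higher, while IRF7, an interferon-induced relative of IRF3, had 1 count in all 12 libraries.

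In the AIM2 inflammasome list 4 of 8 tested genes were higher in LTR8B cells and 2 in GFP cells. The protease CASP1 was higher by 1.43 in LTR8B cells and 1.39 in GFP cells, and CASP4 by 0.59 and 0.50. The pore-forming GSDMD was higher by 0.51 in LTR8B cells (adjusted p = 0.00657), and its log2 value of 0.29 in GFP cells did not pass. PYCARD, which encodes the ASC adaptor between AIM2 and caspase-1, had 1 count in all 12 libraries. Of genes that STING signalling can induce, 4 of 5 tested were higher in LTR8B cells and 1 in GFP cells, where 4 were higher at an unadjusted p under 0.05. The fifth, the chemokine gene CXCL8, was at 5.09 CPM with IFNB and 7.93 CPM untreated in LTR8B cells (log2 -0.62, edgeR adjusted p = 0.0933, DESeq2 adjusted p = 0.0461) and at 3.47 and 5.68 CPM in GFP cells (log2 -0.71, edgeR adjusted p = 0.304). The chemokine gene CXCL10 had 1061 counts in LTR8B cells with IFNB against 3 in LTR8B untreated cells, and 619 against 5 in GFP cells. IFNB1, a direct target of IRF3, had 1 count in all 12 libraries, and IFNL1 and IFNL3 had none.

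**Figure D5:**
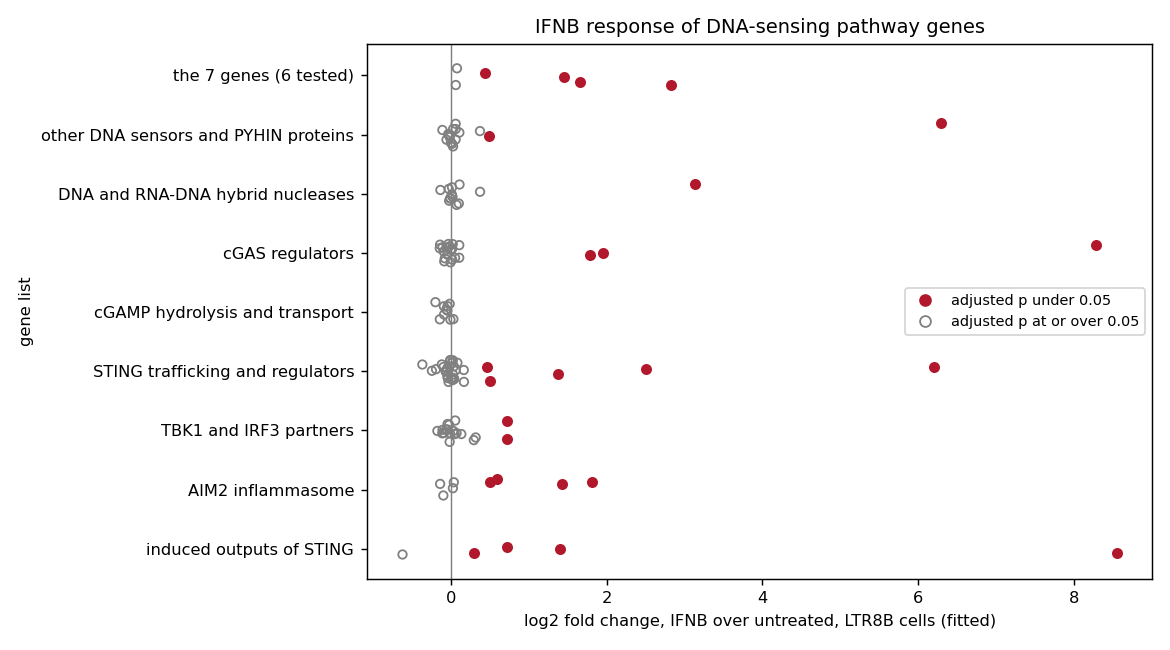
Fitted log2 fold change of IFNB over untreated in LTR8B cells (horizontal axis, n = 4 against 4) for every tested gene of the 7 and of the 8 pathway lists (rows, with vertical jitter), filled where the adjusted p is under 0.05. Most genes lie near 0 and 21 of 125 list genes are filled, all to the right; the fitted values of ZBP1, OASL and CXCL10 rest on few untreated counts.

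Between the guides 2 list genes were higher in LTR8B cells in the average and 0 lower (8 higher and 13 lower at an unadjusted p under 0.05). The 2 were LRRFIP1, higher by 0.23 (adjusted p = 0.0232), and OPTN, by 0.25 (adjusted p = 0.0128). A share of 1.15% of all tested genes was called higher, so 2 of 125 is near the background. DESeq2 called 2 higher and 1 lower, UNC93B1 (DESeq2 adjusted p = 0.0487), and limma-voom 2 higher and 0 lower. OPTN, an adaptor that binds TBK1, was at 121.3 CPM in LTR8B cells and 103.9 CPM in GFP cells with IFNB and at 73.9 and 61.02 CPM untreated. Within a single treatment edgeR called 0 of the 125 (9 with IFNB and 20 untreated at an unadjusted p under 0.05), DESeq2 0 with IFNB and 2 untreated, and limma-voom 0 in both.

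The genes closest to each member in their pattern over the 12 libraries were ranked by the root mean square difference of centred log2(CPM + 1) among 12999 genes with a mean of at least 1 CPM. For IFI16, whose own root mean square deviation was 0.85, the nearest were PNPT1 (0.0602), TRIM5 (0.0815) and SP100 (0.0903). For AIM2 they were PARP10 (0.131), SHFL (0.155) and RASGRP3 (0.160), against an own deviation of 1.34. TREX1 was nearest to PSMB8 (0.138), HOXC-AS2 (0.141) and LAP3 (0.151), against 0.63. STING1 was nearest to UNC93B1 (0.0821), RHBDF2 (0.0915) and GSDMD (0.0976), against 0.26. For TBK1 (VPS26A, API5 and RAB5A, 0.0404 to 0.0415) and IRF3 (ABI3, FSD1 and MMAB, 0.0490 to 0.0547) the own deviations were 0.13, so that their ranking rests on small differences.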

How the data were processed

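Gene counts were deposited as whole numbers per gene and library, which were the values tested. The authors also deposited a table of normalized signal, equal to the counts divided by 1 factor per library (0.601 to 1.46), used here as an alternative scale. Per the submitters' processing notes, Salmon 0.13.1, DESeq2 1.38.3 and hg38 were used, while their roles, the annotation release and the strand setting are not stated. Members, lists and alternatives were chosen with earlier results of these data known. Of 60669 identifiers 60415 matched a gene name, and 25271 had no count.

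Genes passed filterByExpr (minimum count 10, total 15), leaving 16393. Counts were TMM-scaled and fitted with edgeR 4.0.16 (R 4.3.3), quasi-likelihood with robust dispersion, 1 mean per group over 12 libraries and no covariate, for 6 contrasts, with Benjamini-Hochberg adjustment at 0.05. CGAS, below the filter, was tested by exact permutation. Alternatives were DESeq2 1.42.0, its size factors in edgeR, limma-voom (limma 3.58.1), no filter, only the groups compared, a replicate block, and each library left out. Replicates within each group were compared by chi-square over genes. The ratio to its degrees of freedom was 2.74 to 17.4, so no library duplicated another of its group. Libraries of different groups were not compared in this way. On data simulated for 16393 genes, the IFNB contrast in LTR8B cells recovered 83 of 100 genes changed 2-fold and 31 of 100 changed 1.3-fold, that in GFP cells 84 and 9, and each guide contrast within a treatment 81 and 13. The simulation gave every gene the same dispersion and no deviation particular to a library. These counts therefore check the fit and do not measure its power on the real libraries.

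Named genes were the 7 members; SP140, ISG15 and IFIT1 as checks; up to 3 genes with the smallest adjusted p per pathway list; and the 3 most alike genes per member. Other genes (UNC93B1, RHBDF2, GSDMD, PYCARD, IRF7, the interferon genes, CXCL8, CD68, CSF1R, SPARC, COL1A1 and those that overlap a member) were named after their values were seen. Positions and exon lengths are from GENCODE release 29, and promoter windows from RefSeq. Figures and summaries used Python 3.11.15, SciPy 1.17.1 and matplotlib 3.10.9.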

Additional observations from a re-analysis of the deposited data

Results flagged for a closer look

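TBK1 was marked in 2 of the 14 groups of 4 libraries examined for a sample far from the others, where chance marks about 1 group in 20. In LTR8B cells with IFNB, replicate 4 stood at 71.1 CPM against 57.4 to 58.8 CPM in the other 3 libraries, a gap of 0.898 of the group's range, above Dixon's critical value. In LTR8B untreated cells, replicate 2 stood at 51.7 CPM against 60.6 to 61.6 CPM in the other 3 libraries, a gap of 0.902. TBK1 did not pass the threshold in any comparison with or without these libraries.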

How the results depend on the processing

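Over the 6 contrasts, 486 of the alternative values of single members kept their direction and side of the threshold, 9 gained and 4 lost a call, and 11 turned sign. The IFNB calls of AIM2, IFI16 and TREX1 held in both lines, and that of STING1 in LTR8B cells, under every alternative run. DESeq2 raised the genes called for the guide to 120 with IFNB, 177 untreated and 590 averaged, and the members called to 1 untreated and 2 averaged. Without the filter these were 260, 325 and 775 genes and 1 and 2 members, and the contrast of the 2 responses gave 13 genes. Leaving out each library in turn gave 602 to 700 genes for IFNB in LTR8B cells (4 members throughout), 344 to 459 in GFP cells (3 members throughout), 21 to 49 with IFNB (0 members), 22 to 94 untreated (0 to 1 members) and 93 to 461 averaged (0 to 2 members) for the guide, and 0 to 1 genes (0 members) for the contrast of responses. Left out alone, these libraries moved a count by over 1.5 times: IFNB in GFP cells gave 344 genes without GFP untreated replicate 1; the untreated guide contrast 94 without LTR8B untreated replicate 2 and 34 and 22 without GFP untreated replicates 1 and 2; that with IFNB 37 when LTR8B IFNB replicate 2 was left out and 21 when GFP IFNB replicate 2 was; and the averaged one 191, 93, 178 and 153 without GFP untreated replicates 1 and 2 and GFP IFNB replicates 1 and 2. Sign turns under a left-out library, none past the threshold, lay within -0.0192 to 0.0913 for TBK1 with IFNB in LTR8B cells, -0.0309 to 0.0687 for IFI16 untreated and -0.0489 to 0.00099 averaged, and, for the contrast of responses, -0.0160 to 0.184 for STING1, -0.0475 to 0.201 for AIM2, -0.129 to 0.0265 for TBK1 and -0.0545 to 0.243 for TREX1. The cause was not tested.

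The replicate numbers were not shown to pair the libraries. Same-numbered LTR8B libraries had correlations of deviations of 0.164, 0.125, 0.0375 and 0.157, the third below 0.1 and below that of IFNB replicate 3 with untreated replicate 2 (0.0525), and same-numbered GFP libraries one of 0.0969. With the replicate block the averaged guide contrast called 181 genes and 0 members (STING1 adjusted p = 0.102), IFI16 untreated was -0.0220 and TREX1 with IFNB 0.0243 between the guides. A block within each guide, added after the data were seen, gave 4 genes for the contrast of responses, 1040 for IFNB in LTR8B cells (737 without a block) and 747 in GFP cells (524). CGAS had at most 10 counts per library, and its exact permutation test could not give a p under 0.333 for IFNB in GFP cells or under 0.0667 between the guides within 1 treatment.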
